A study of Mus musculus with 6 samples.

Results

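The BCL2 family of cell death regulators was followed in the mouse macrophage line RAW264.7 through 10 genes chosen by symbol from the 18019 in the deposited table. They were the 5 pro-survival genes Bcl2, Bcl2l1, Bcl2a1b, Bcl2a1d and Mcl1 and the 5 pro-death genes Bax, Bak1, Bcl2l11, Bid and Bad. The cells behind all 6 libraries had been induced with LPS, the bacterial endotoxin, which is used to bring macrophages into the inflammatory state called M1. A control group without TPPU (n = 3) was compared with a group given TPPU (n = 3), which inhibits soluble epoxide hydrolase, an enzyme that degrades lipid mediators made from arachidonic acid. The labels give no dose or time. Batch 1 is given for every library. Nothing states that replicates were grown as separate cultures, so a p-value here weighs a difference only against the spread of these samples, and that spread may be technical. For the TPPU libraries the descriptions also cite columns of another table whose names refer to sh-LIS1, and that table was not used here.

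BCL2 family proteins decide at the outer mitochondrial membrane whether a cell enters apoptosis. BAX and BAK form the pores that release cytochrome c, and pro-survival proteins such as BCL2, BCL-XL, A1 and MCL1 hold them in check. The BH3-only proteins, among them BIM, BID, BAD, PUMA and NOXA, bind the pro-survival proteins or activate BAX and BAK directly. In macrophages, A1 is a known target of NF-κB and is induced by inflammatory stimuli, and MCL1 is a protein with a short lifetime whose level depends on continued synthesis.

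Values are FPKM, fragments scaled to transcript length and to library size, so levels can be set side by side between genes. For genes that share sequence, such as the Bcl2a1 copies described below, such a comparison is less certain. Depth, estimated from the steps between low values, was 17700000 to 22800000 fragments per library. Control replicate 3 had the lowest correlations with the other libraries (0.958 to 0.977). Its share of mitochondrial transcripts was 0.371% of FPKM, that of TPPU replicate 1 was 0.914%, and the remaining 4 libraries had 1.46% to 1.85%. The 8 macrophage markers were all at 1 FPKM or more in every library. The summed level of 3 hepatocyte markers (Alb, Apoa1 and Ttr, all measured at 1 FPKM or more in every library) was 32.1 to 67.3 in control and 76.4 to 139 under TPPU. Every TPPU library was thus above every control in this sum. The part of these transcripts in the results was not tested. Of the markers of 7 other cell types, none reached 1 FPKM in every library.

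None of the 10 members passed the test for a difference between TPPU and control, and in none were the 2 groups fully separated. All 10 passed the filter of at least 1 FPKM in at least 3 libraries. With limma on log2(FPKM + 1) over 9728 genes, adjusted p-values of the members were between 0.725 and 0.903. Over all genes tested, 0 (0%) passed an adjusted p of 0.05 by limma, and 768 (7.89%) had an unadjusted p under 0.05. None of the 10 members were among those 768. Groups that did not overlap were seen for 7.48% of all genes tested with the TPPU group higher and for 7.88% with it lower. The median log2 change was 0.03 for the 10 members and 0.02 for all genes tested, with 5 members positive and 5 negative. In these bulk samples, fewer cells of a type and less RNA per cell cannot be told apart.

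**Figure D1:**
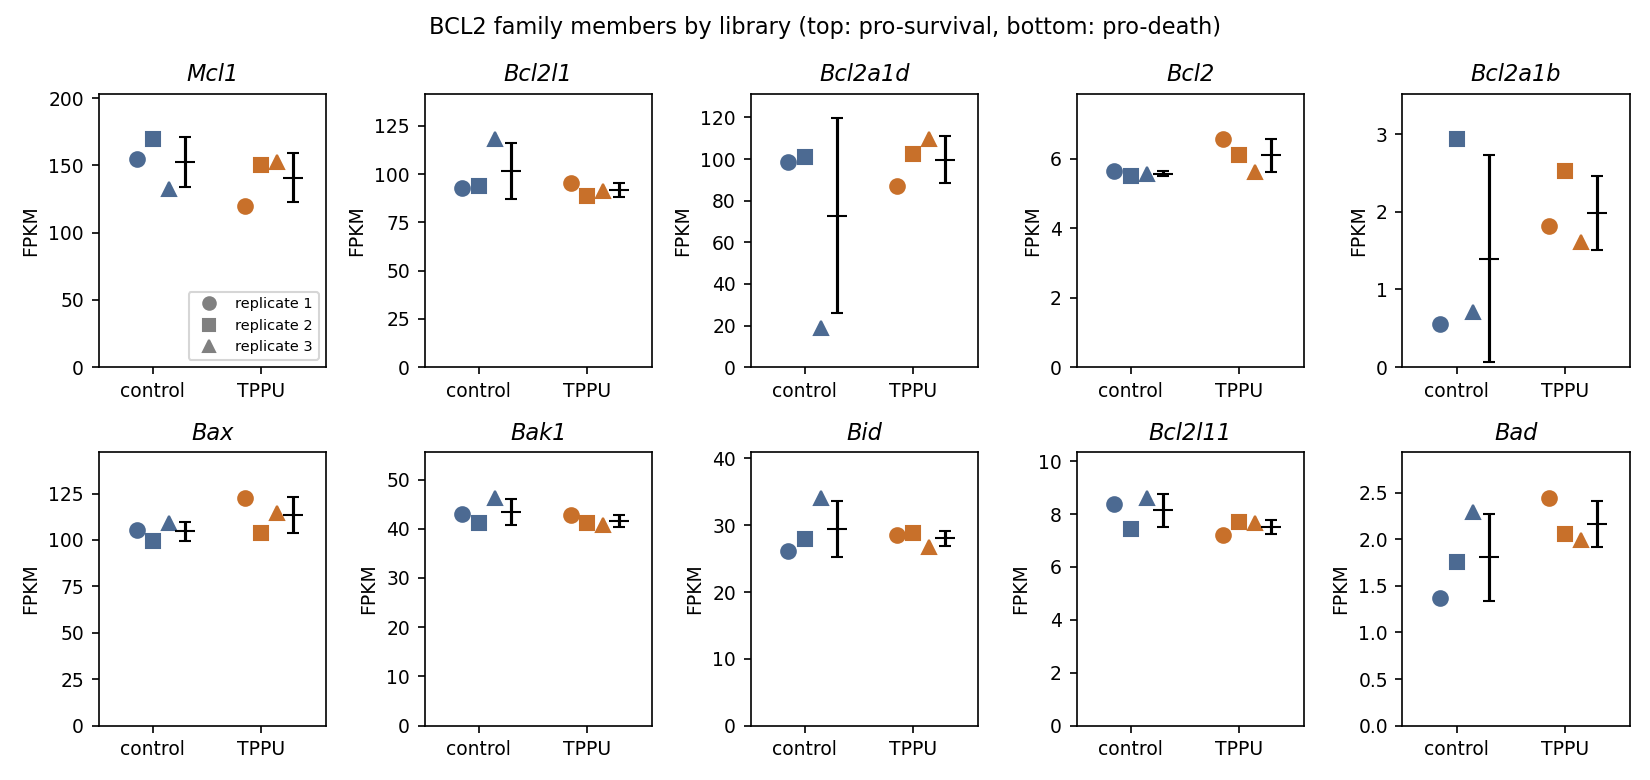
FPKM of the 10 members in each library, with control in blue and TPPU in orange, symbols for replicates, and a bar for the mean ± SD (n = 3) beside each group. The groups overlap in every panel, and control replicate 3 is far below the other 5 libraries for Bcl2a1d, at 18.8 against 87.2 to 110.

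Mcl1 was the member with the highest mean level, at 147 FPKM over the 6 libraries, followed by Bax at 109, Bcl2l1 at 96.7 and Bcl2a1d at 86.3. Mcl1 exceeded Bax in 5 of 6 libraries and Bax exceeded Bcl2l1 in 5, but Bcl2l1 exceeded Bcl2a1d in 2 of 6, so this pair was not ordered beyond its spread. Bak1 (42.5) and Bid (28.7) came next, and Bcl2l11 (7.83) and Bcl2 (5.84) were lower still. Each of these 4 lay above the next in all 6 libraries. Bad (1.98) and Bcl2a1b (1.69) were the lowest, and Bad exceeded Bcl2a1b in 4 of 6 libraries. Bcl2, the gene that names the family, was therefore a minor transcript beside Mcl1 and Bcl2l1 in both groups.

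Mcl1 (chr3:95658788-95663176, plus strand; positions of genes are from GENCODE M21, mm10) measured 155, 169 and 132 FPKM in control replicates 1, 2 and 3, and 120, 150 and 153 under TPPU. Its lowest value was in TPPU replicate 1 and its next lowest in control replicate 3, and the groups overlapped. On the log2 scale the difference was -0.11 (SE 0.13, adjusted p = 0.827 by limma), with a 95% interval of 0.754 to 1.13 in fold on the FPKM + 1 scale. Without control replicate 3 it was -0.21, without control replicate 2 it was -0.03, and without TPPU replicate 1 it was -0.00061.

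Bcl2l1 (chr2:152780668-152831728, minus strand) encodes BCL-XL from its long splice form and the pro-death BCL-XS from a short one, and the table gives 1 value for the gene. It measured 92.9, 93.6 and 118 in control and 95.6, 88.5 and 91.2 under TPPU. The 118 of control replicate 3 stood above the other 5 libraries, which lay within 88.5 to 95.6. This gave a log2 difference of -0.14 (SE 0.11, fold interval 0.763 to 1.08, adjusted p = 0.761 by limma), and -0.02 without that library. With sample quality weights it was -0.052.

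Bcl2 (chr1:106538178-106714274, minus strand) measured 5.65, 5.51 and 5.56 in control and 6.57, 6.12 and 5.63 under TPPU. The controls lay close together, at 5.57 ± 0.07 (SD), and TPPU replicates 1 and 2 were above all of them, while TPPU replicate 3 lay between control replicates 1 and 3. The fitted log2 change came to 0.11 (SE 0.10, fold interval 0.914 to 1.27, adjusted p = 0.786 by limma), and it was also 0.11 without control replicate 3. It was 0.063 without TPPU replicate 1 and 0.046 with a trend on GC content removed.

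Bcl2a1b and Bcl2a1d are copies of the gene for A1, the pro-survival protein named above, in a cluster on mouse chromosome 9 that also holds Bcl2a1a. The first 120 bases of the 3 coding sequences (GENCODE M21, mm10) show how few letters set them apart. Capitals mark the 7 positions in this stretch at which the copies differ.
Bcl2a1a: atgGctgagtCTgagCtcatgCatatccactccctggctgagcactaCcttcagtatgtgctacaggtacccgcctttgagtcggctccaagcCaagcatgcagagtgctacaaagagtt
Bcl2a1b: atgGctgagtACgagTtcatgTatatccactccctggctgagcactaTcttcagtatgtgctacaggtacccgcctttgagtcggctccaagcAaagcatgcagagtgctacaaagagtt
Bcl2a1d: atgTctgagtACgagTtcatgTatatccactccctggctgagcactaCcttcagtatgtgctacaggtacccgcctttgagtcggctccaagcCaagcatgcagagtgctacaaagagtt

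The stretches lie at chr9:88957051-88957170 on the plus strand (Bcl2a1a), chr9:89199360-89199479 on the plus strand (Bcl2a1b) and chr9:88731600-88731719 on the minus strand (Bcl2a1d). Over the 516 coding bases, Bcl2a1b and Bcl2a1d differed at 6 positions (98.8% identity), Bcl2a1a and Bcl2a1d at 7 (98.6%) and Bcl2a1a and Bcl2a1b at 11 (97.9%). Of the 12 positions at which 1 copy differs, a single one, at coding base 4, sets Bcl2a1d apart from both other copies. Of the 100-base windows of the transcripts, 54.7% in Bcl2a1d, 56.8% in Bcl2a1b and 43.5% in Bcl2a1a also occurred in a transcript of another gene. How the authors assigned fragments shared by the copies is not given in the sources used here. The division between the copies, their summed level and their place beside other genes are therefore uncertain.

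Bcl2a1d (chr9:88723285-88731914, minus strand) carried most of the signal of the cluster. It measured 98.8, 101 and 18.8 FPKM in control replicates 1, 2 and 3, and 87.2, 103 and 110 under TPPU. Control replicate 3 was at 0.188 of the mean of the other 2 controls, and all other libraries lay within 87.2 to 110. TPPU minus control came to 0.78 in log2 (SE 0.55, fold interval 0.712 to 4.12, adjusted p = 0.725 by limma). Without control replicate 3 it was -0.01, and with sample quality weights it was 0.13. Without control replicate 1 or 2 it was 1.16 or 1.17. The positive change of Bcl2a1d, the largest of any member, therefore rested on that 1 library.

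Bcl2a1b (chr9:89199209-89207827, plus strand) was near the low end of detection, at 0.554, 2.94 and 0.705 in control and 1.81, 2.52 and 1.61 under TPPU. With the length of its single annotated transcript, these values correspond to about 8, 54 and 11 fragments in control and 27, 47 and 28 under TPPU. They came out near whole numbers, as do the steps used to estimate depth. Control replicate 2 was the highest of all 6 libraries and the other 2 controls the lowest. The log2 change was 0.44 (SE 0.33, fold interval 0.799 to 2.3, adjusted p = 0.741 by limma). It was 0.26 without control replicate 3, 0.19 without control replicate 1 and 0.86 without control replicate 2. A pseudocount of 0.1 gave 0.81, and sample quality weights gave 0.76.

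Bcl2a1a, the remaining copy, measured 13, 16.2 and 10.6 in control and 13.5, 19.1 and 18.6 under TPPU (log2 change 0.34, SE 0.18, adjusted p = 0.651 by limma). Of the summed FPKM of the 3 copies, Bcl2a1d held 82.6% to 87.9% in 5 libraries and 62.4% in control replicate 3. Bcl2a1d exceeded Bcl2a1a 5.36 to 7.57 times in those 5 libraries and 1.77 times in control replicate 3, so the copies were not low in proportion there. Summed into 1 value, which was done after the data were seen, the copies measured 87.5 ± 49.9 in control and 119 ± 14.4 under TPPU. The log2 change of the sum was 0.66 (SE 0.45, adjusted p = 0.718 by limma), and 0.02 (SE 0.10) without control replicate 3.

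**Figure D2:**
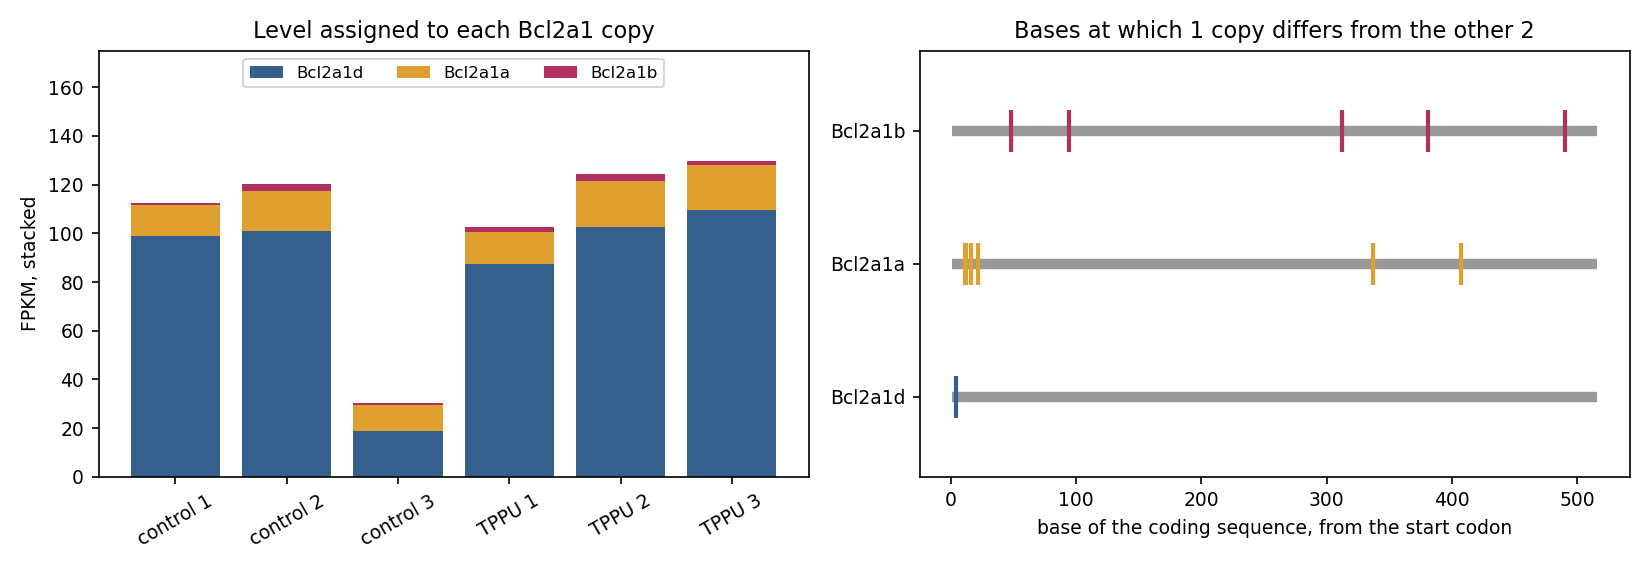
Left, FPKM of the 3 Bcl2a1 copies stacked for each library. Right, ticks at the coding bases where 1 copy differs from the other 2, counted from the start codon. The stack of control replicate 3 is 30.1 FPKM high, against 103 to 130 in the other libraries, and Bcl2a1d has a single tick.

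A stretch of DNA before the start sites of Bcl2a1a and Bcl2a1d is nearly as alike as the coding sequence, apart from a run of 6 bases. Bcl2a1d was assigned the higher level in every library. The stretch shown ends 71 bases before the RefSeq start site of each gene (GRCm38.p6). The bases between it and the start site were not compared, so likeness of the whole promoter is not shown. Capitals mark the mismatches and a run of 6 bases present in 1 copy alone.
Bcl2a1a: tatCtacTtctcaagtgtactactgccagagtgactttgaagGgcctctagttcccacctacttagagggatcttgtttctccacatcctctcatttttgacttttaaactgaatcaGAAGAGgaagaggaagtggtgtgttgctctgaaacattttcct
Bcl2a1d: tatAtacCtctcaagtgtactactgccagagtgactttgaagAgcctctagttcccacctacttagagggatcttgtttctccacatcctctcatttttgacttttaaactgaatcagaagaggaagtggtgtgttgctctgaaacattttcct

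The first lies at chr9:88956690-88956849 on the plus strand and the second at chr9:88731921-88732074 on the minus strand. Of 154 aligned bases 151 were identical (98.1%), with the run that only Bcl2a1a holds left out of this count.

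Among the pore-forming members, Bax (chr7:45461697-45466898, minus strand) was the more abundant. It measured 105, 99.4 and 109 FPKM in control and 123, 103 and 115 under TPPU. TPPU replicates 1 and 3 were above all controls, and TPPU replicate 2 lay within their range. This gave a log2 difference of 0.11 (SE 0.09, fold interval 0.934 to 1.26, adjusted p = 0.761 by limma). It was 0.058 without TPPU replicate 1, 0.18 without TPPU replicate 2 and 0.028 once a length trend was taken out. Part of the Bax transcript, 9.49% of its 100-base windows, is shared with the overlapping gene Gm45808, which was at 0.358 FPKM or less in every library.

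Bak1 (chr17:27019810-27029009, minus strand), the other pore former, was among the steadiest members. It measured 43, 41.1 and 46.3 in control and 42.9, 41.1 and 40.8 under TPPU, a log2 change of -0.06 (SE 0.09, adjusted p = 0.864 by limma). The fold interval of 0.834 to 1.1 was the narrowest of the 10. The change was -0.015 without control replicate 3, -0.099 without control replicate 2 and -0.017 with a trend on GC content removed. Bax and Bak1 thus had changes of opposite sign, and both fold intervals included 1.

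The BH3-only members differed widely in level. Bid (chr6:120891930-120916853, minus strand), whose protein is cut by caspase 8 and links death receptors to mitochondria, measured 26.1, 27.9 and 34.1 in control and 28.6, 28.8 and 26.7 under TPPU. Control replicate 3 was the highest library, and the others lay within 26.1 to 28.8. The log2 change of -0.06 (SE 0.12, fold interval 0.8 to 1.15, adjusted p = 0.903 by limma) was 0.05 without that library and -0.13 without control replicate 1.

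Bcl2l11 (chr2:128126038-128162547, plus strand), which encodes BIM, an activator of BAX and BAK that binds all pro-survival members, measured 8.37, 7.44 and 8.62 in control and 7.21, 7.68 and 7.66 under TPPU. Control replicate 2 lay among the TPPU libraries, and the other 2 controls lay above them. The fitted log2 change came to -0.10 (SE 0.10, fold interval 0.792 to 1.1, adjusted p = 0.802 by limma). It was -0.063 without control replicate 3 and -0.16 without control replicate 2.

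Bad (chr19:6941861-6951899, plus strand), whose protein is held inactive by phosphorylation in the presence of growth factors, was low. It measured 1.37, 1.75 and 2.29 in control and 2.45, 2.06 and 1.99 under TPPU. Control replicate 3 lay among the TPPU libraries and the other 2 controls below them. TPPU minus control came to 0.18 in log2 (SE 0.16, fold interval 0.885 to 1.46, adjusted p = 0.769 by limma), and 0.31 without control replicate 3. It was 0.069 without control replicate 1, 0.12 without TPPU replicate 1 and 0.33 with sample quality weights.

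Pro-survival members did not move apart from pro-death members in a direction that held across libraries. The mean log2(FPKM + 1) of the 5 pro-survival members minus that of the 5 pro-death members was 0.48, 0.78 and -0.14 in control replicates 1, 2 and 3. With TPPU it was 0.45, 0.67 and 0.59. Control replicate 3 was the only library below 0, and the TPPU values lay within or just below the range of the other 2 controls. The group means were 0.37 ± 0.47 (SD) and 0.57 ± 0.11. No test was made of this score, because the members were chosen with results of these data known.

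The difference between the group means, TPPU minus control, was 0.20. It was -0.06 without control replicate 3, and also -0.06 with all libraries when Bcl2a1b and Bcl2a1d were left out, a choice made after the data were seen. Without the copies the score was 1.24, 1.27 and 1.06 in control and 1.05, 1.17 and 1.16 under TPPU. The sign of the difference thus turned without control replicate 3, and also without Bcl2a1b and Bcl2a1d. Neither run set the copies in control replicate 3 apart from everything else, so their part alone was not tested. The median log2 change was 0.11 for the pro-survival members and -0.06 for the pro-death members. Without control replicate 3 these medians were -0.01 and 0.05.

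**Figure D3:**
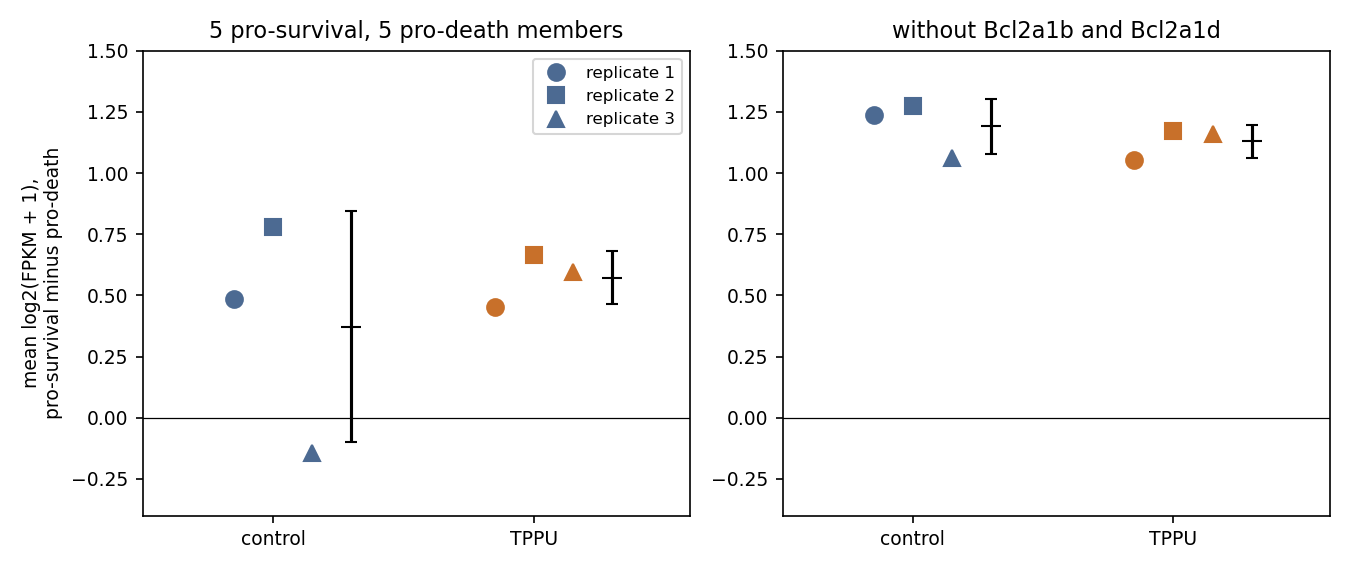
Mean log2(FPKM + 1) of pro-survival members minus that of pro-death members in each library, with group mean ± SD (n = 3). Left, all 10 members, with control replicate 3 at -0.14. Right, without Bcl2a1b and Bcl2a1d, where all libraries lie between 1.05 and 1.27.

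In summed FPKM, the 5 pro-survival members exceeded the 5 pro-death members in every library. These sums hold the chosen members only. The pro-death genes Bbc3 and Pmaip1 and the pro-survival genes Bcl2a1a and Bcl2l2 are not in them, so the ratios depend on the genes listed. The ratio of the sums was 1.92, 2.10 and 1.37 in control and 1.53, 1.91 and 1.88 under TPPU. The lowest ratios were in control replicate 3 and TPPU replicate 1, which also had the smallest shares of mitochondrial transcripts. Without the Bcl2a1 copies the ratio was 1.38, 1.51 and 1.28 in control and 1.09, 1.34 and 1.30 under TPPU.

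Ratios of 3 pairs of opposing members were also set out. Bcl2 to Bax, often used as an index of readiness for apoptosis, was 0.0536, 0.0554 and 0.0509 in control and 0.0535, 0.0591 and 0.0491 under TPPU. The TPPU values spanned the controls. Mcl1 to Bcl2l11 was 18.5, 22.8 and 15.4 in control and 16.6, 19.6 and 20 under TPPU, and again the groups overlapped. Bcl2l1 to Bad was 67.8, 53.4 and 51.5 in control and 39.1, 43 and 45.9 under TPPU. All TPPU values of this ratio were below all control values. It sets an abundant gene against one at about 2 FPKM, and neither gene was separated on its own.

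The other genes of the family that were tested held the 2 smallest p-values of the family, and neither passed. Of 16 further family genes listed, 14 were in the table and 8 passed the filter, with 4 positive and 4 negative changes, 0 called in either direction and a median of -0.07. The groups did not overlap in 3 of the 8, with the TPPU group lower in 3 and higher in 0 (7.88% and 7.48% of all genes tested). The 3 were Pmaip1, Bcl2l2 and Bbc3. At an unadjusted p under 0.05 there were 2 lower and 0 higher (3.7% and 4.19% of all genes tested).

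Pmaip1 encodes NOXA, a BH3-only protein that binds MCL1 and A1 and is a p53 target. It measured 8.42, 7.9 and 9.06 in control and 5.04, 5.3 and 6.79 under TPPU. Every TPPU library was below every control, and control replicate 3 did not stand apart. On the log2 scale the difference was -0.50 (SE 0.13, adjusted p = 0.407 by limma, unadjusted p = 0.00406), and -0.46 without control replicate 3. With sample quality weights it passed (log2 change -0.49, limma adjusted p = 0.0461), when 169 genes did so. In that fit control replicates 1, 2 and 3 had weights of 3.84, 0.826 and 0.191, so control replicate 1 carried most of the control weight.

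Bcl2l2 encodes BCL-W, a pro-survival protein. It measured 7.25, 6.4 and 7.42 in control and 5.24, 4.98 and 5.74 under TPPU. All TPPU values were lower, with a log2 change of -0.34 (SE 0.11, adjusted p = 0.554 by limma), or -0.31 without control replicate 3. Of its 100-base windows, 11.7% are shared with the overlapping gene Gm20521, so these genes can take each other's fragments. Gm20521 measured 0.0454, 0.357 and 0.547 in control and 1.28, 0.599 and 1.78 under TPPU, so its groups were separated in the direction opposite to Bcl2l2. The part of this overlap in the Bcl2l2 values was not tested.

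Bbc3, which encodes PUMA, a BH3-only protein and p53 target, was the most abundant of the other family genes. It measured 37.7, 40.3 and 44.5 in control and 37.4, 35.3 and 33.5 under TPPU. The groups were separated by a small margin, between 37.7 in control replicate 1 and 37.4 in TPPU replicate 1, and the log2 change was -0.20 (SE 0.10, adjusted p = 0.638 by limma).

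The mitophagy receptor genes Bnip3 and Bnip3l measured 6.33 ± 1.11 and 19.1 ± 3.15 in control, and 5.53 ± 0.69 and 19.2 ± 1.02 under TPPU. Bcl2l12 and Bcl2l13 measured 2.17 ± 0.13 and 11.1 ± 0.43 in control, and 2.30 ± 0.23 and 11.6 ± 0.74 under TPPU. Limma adjusted p-values of these 4 genes were 0.782, 0.971, 0.911 and 0.894.

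**Figure D4:**
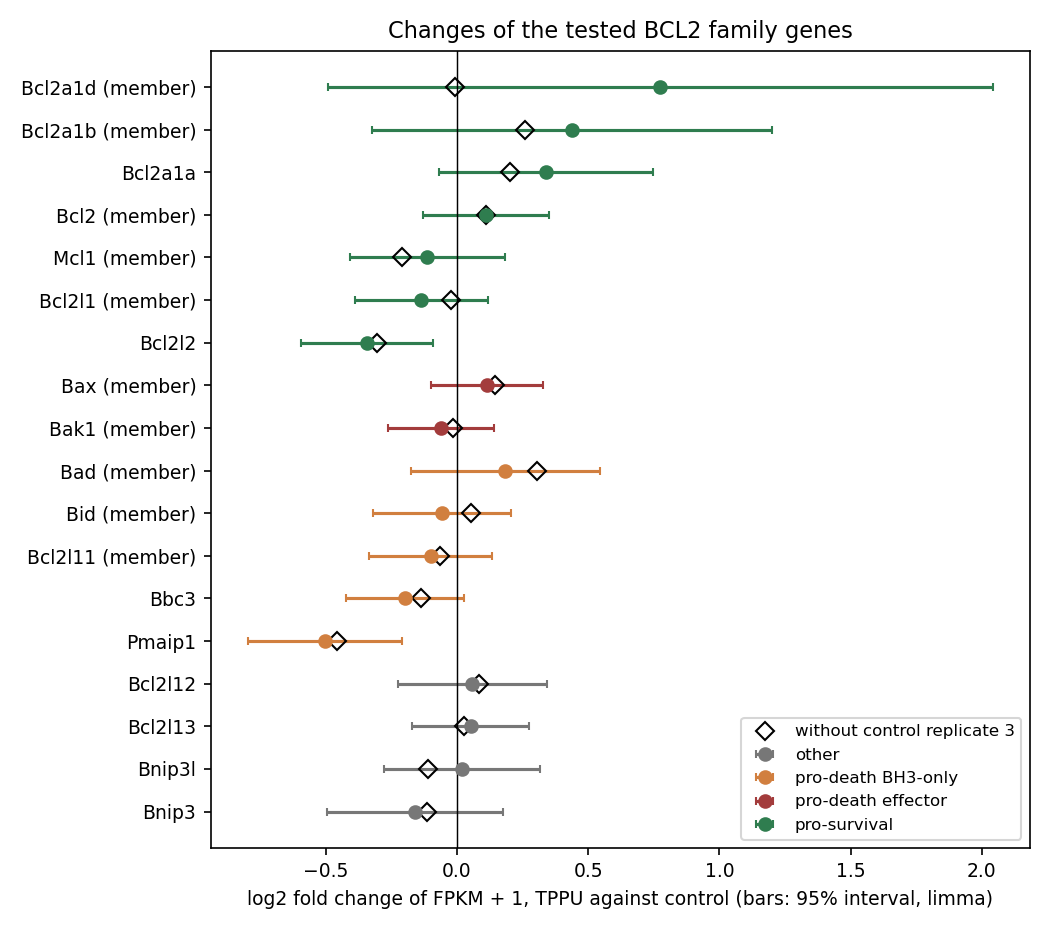
Log2 fold changes of FPKM + 1, TPPU against control, for the 18 tested family genes, coloured by role, with 95% intervals from limma. Open diamonds give the change without control replicate 3, which for Bcl2a1d is -0.01 in place of 0.78. The intervals of Pmaip1 and Bcl2l2 alone leave out 0, and neither gene passed the adjusted test.

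The remaining 6 family genes in the table were below the filter. Bmf and Bik, which encode BH3-only proteins, measured 0.28, 0.541 and 0.738, and 0.533, 0.251 and 0.263, in control. With TPPU they measured 0.617, 0.676 and 0.681, and 0.173, 0.303 and 0.237 (exact permutation p = 0.4 for each, where the smallest p that 3 libraries against 3 allow is 0.1). Bcl2l15 measured 0.417, 0.311 and 0.444 in control and 0.283, 0.0485 and 0.295 under TPPU, with every TPPU value below every control (exact permutation p = 0.1). Its floor of 3 fragments is worth 0.0692 to 0.0891 FPKM, so the 0.0485 of TPPU replicate 2 was below that floor. Of its 100-base windows, 19.7% are shared with Gm43064, and the part of this in its values was not tested. Bok, a relative of the pore formers, was at or below 0.193 FPKM in every library, Bcl2l14 at or below 0.0767, and Bcl2l10 at 0.0423 in control replicate 3 and listed at 0 elsewhere. A floor of 3 fragments is worth 0.0896 to 0.115 FPKM for Bok and 0.108 to 0.139 for Bcl2l10, so Bcl2l10 was below this floor in every library. Bcl2a1c and Hrk were not analysed here.

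Downstream and upstream of the family, no gene of 5 further lists passed the test, with 24 positive and 21 negative changes among 45 tested genes. In 4 of these lists the medians were 0.15 for 8 mitochondrial release factors and channel partners, 0.15 for 7 IAP genes, -0.07 for 7 death receptor initiators and 0.01 for 15 regulators of the family. Over all genes tested the median was 0.02. In 4 of the 45 genes (Diablo, Tradd, Pim1 and Birc6, the last named after its values were seen) every TPPU library was below every control, and in 0 above, where all genes tested gave 7.88% and 7.48%. Diablo passed the filter through its controls alone, so the filter favoured its place in this count. Without control replicate 3 the 4 medians were 0.07, -0.05, -0.12 and -0.04, against 0.02. Of these 4, the IAP and regulator medians changed sign without that library. The median of the fifth list is not reported here.

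Apaf1, the scaffold of the apoptosome, measured 6.69 ± 0.78 in control and 6.17 ± 0.68 under TPPU, and Parp1, which encodes a DNA repair enzyme, 33.8 ± 3.45 and 36.8 ± 1.8. Values of both genes overlapped between the groups.

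Diablo, which encodes SMAC, a mitochondrial protein that blocks IAPs once released, was the member of its list whose groups were separated. It measured 1.27, 1.29 and 1.04 in control and 0.784, 0.903 and 0.985 under TPPU (log2 change -0.22, SE 0.14, adjusted p = 0.707 by limma). Every control and no TPPU library reached 1 FPKM, so Diablo passed the filter through the control group alone. Its separation is thus not independent of that filter. The channel genes Vdac1, Vdac2 and Vdac3 measured 81.4 ± 5.62, 69.6 ± 17.6 and 16.3 ± 8.3 in control, and 89.1 ± 3.34, 82.1 ± 4.33 and 21.1 ± 4.5 under TPPU. VDAC2 is a partner of BAK in the outer membrane. In control replicate 3, Vdac2 stood at 49.4 and Vdac3 at 7.02, the lowest of the 6 libraries for both, while Vdac1 was at 85.5.

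Xiap, a direct inhibitor of caspases, measured 6.92, 8.55 and 2.47 in control and 5.72, 7.68 and 9.17 under TPPU. Its change of 0.39 (SE 0.35, adjusted p = 0.775 by limma) was -0.05 without control replicate 3, the same pattern of 1 low library as in Bcl2a1d. The other IAP genes named by the rule were Birc3 (24.9 ± 2.83 in control and 27.6 ± 1.08 under TPPU), Birc5 (3.48 ± 0.34 and 4.05 ± 0.93) and Naip5 (5.27 ± 0.26 and 4.64 ± 0.38).

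Among death receptor genes, Tradd, which encodes the adaptor of TNF receptor 1, measured 6.39, 6.95 and 7.88 in control and 5.97, 6.02 and 5.4 under TPPU. Its groups were separated, with a log2 change of -0.25 (SE 0.11, adjusted p = 0.627 by limma). Fas measured 5.37, 4.2 and 1.75 in control and 3.22, 3.42 and 2.74 under TPPU. Its change of -0.13 was -0.48 without control replicate 3 and 0.12 without control replicate 1. The TNF receptor gene Tnfrsf1a measured 23.9 ± 4.22 and 22.6 ± 2.23, and Ripk1, which encodes a kinase of the same complex, 3.38 ± 0.11 and 3.15 ± 0.27.

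Among the regulators, Pim1, which encodes a kinase that phosphorylates BAD, had the smallest p. It measured 67.9, 66.6 and 75.8 in control and 52.9, 56.2 and 52.3 under TPPU, and every TPPU value was below every control. The log2 change was -0.37 (SE 0.09, adjusted p = 0.397 by limma), or -0.32 without control replicate 3. With the same sample quality weights it passed (limma adjusted p = 0.0395). Dynll2, which encodes a dynein light chain that binds BMF, measured 17.9 ± 1.44 and 14.5 ± 3.57. Foxo1, a transcription factor that can act on Bcl2l11, measured 1.59 ± 0.22 and 1.28 ± 0.11. Ywhaq, which encodes a 14-3-3 protein of the class that holds BAD in the cytosol, measured 44.3 ± 13 and 53 ± 7.6, with 29.3 in control replicate 3.

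The member values of control replicate 3 were ordered in part by the GC content of the transcripts. Its level relative to the mean of control replicates 1 and 2 was 0.188 for Bcl2a1d, 0.404 for Bcl2a1b and 0.817 for Mcl1, with GC contents of 44.6%, 44.1% and 48.7%. It was 1.27 for Bcl2l1 and 1.47 for Bad, with GC contents of 55.9% and 57.1%. Other members departed from this order. Bax, with the highest GC content of the 10 at 63.5%, had a ratio of 1.07, Bcl2l11 (48.0% GC) had 1.09, and Bcl2 (46.3% GC) had 0.997. For Bak1 (57.1% GC) and Bid (51.3% GC) it was 1.10 and 1.26. Outside the members, the ratio was 0.725 for Bcl2a1a (44.2% GC) and 0.750 for Bnip3l (41.9% GC). It was 1.11 for both Pmaip1 (42.1% GC) and Bnip3 (41.6% GC), so low GC content did not always go with a low ratio. Over the 10 members, which share these libraries, Spearman's rho between the log2 deviation and GC content was 0.72. It was 0.49 over the 18 tested family genes and 0.63 over 9522 tested genes with a GC value.

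TPPU replicate 1 showed a similar order against TPPU replicates 2 and 3. Its ratio was 0.791 for Mcl1, 0.822 for Bcl2a1d and 1.21 for Bad, and rho was 0.68 over the 10 members and 0.43 over all tested genes with a GC value. With a trend on GC content removed from each library, the change of Bcl2a1d was 0.69 and that of Mcl1 was -0.13. The difference in the pro-survival minus pro-death score was then 0.14. Control replicate 3 or TPPU replicate 1 was the highest library for 7 of the 10 members and the lowest for 3. The same count was not made over all genes tested, so it is not read as particular to the members. The part of GC content in these values was not tested beyond this correction.

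**Figure D5:**
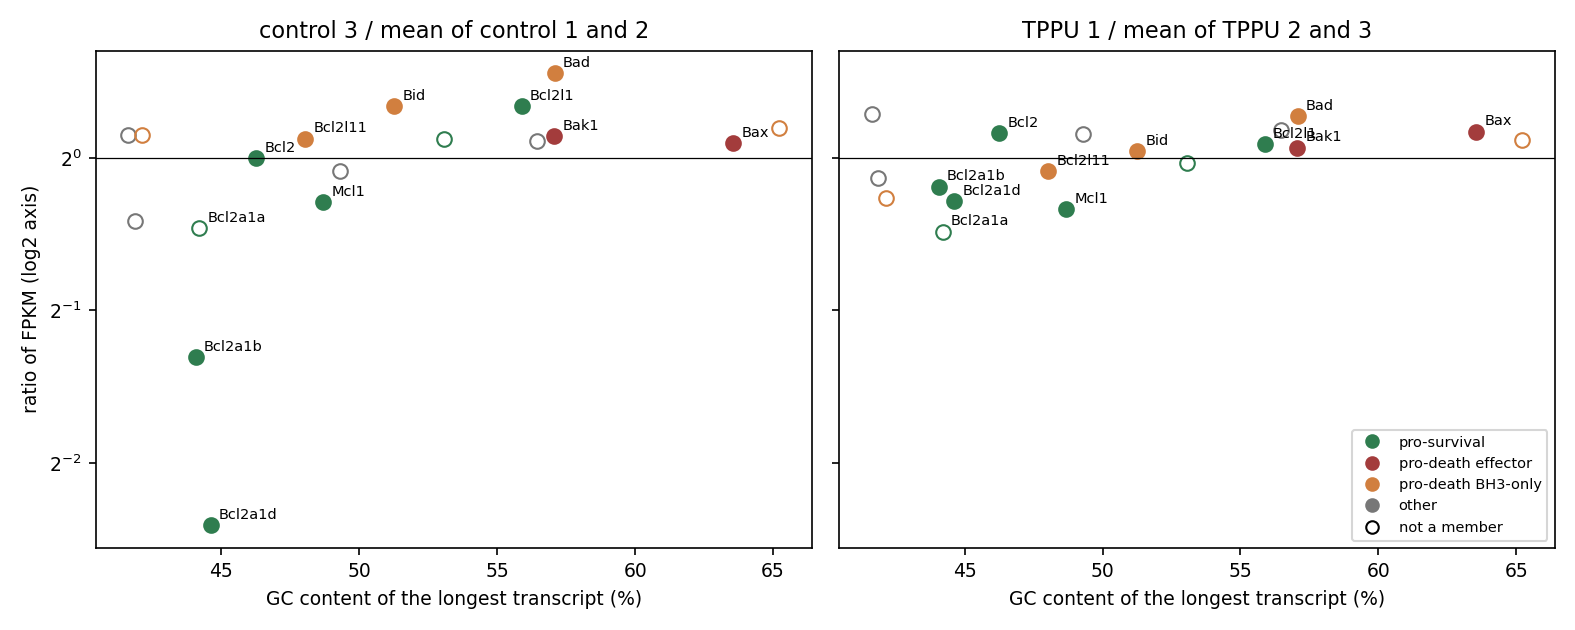
Ratio of FPKM in control replicate 3 to the mean of control replicates 1 and 2 (left), and in TPPU replicate 1 to the mean of TPPU replicates 2 and 3 (right), against GC content of the longest transcript, for the 18 tested family genes. Bcl2a1d, at 44.6% GC, has a ratio of 0.188 on the left and 0.822 on the right, and Bad, at 57.1% GC, 1.47 and 1.21.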

How the data were processed

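The authors deposited a single table of FPKM values, with a column per library and a row per gene symbol, whose unit was read from the table's name and values. Genome build mm10 is named per the submitters' processing notes. For the aligner, counting program, annotation and filters, the answer is not given in the sources used here. Per the labels' protocols, polyadenylated RNA was made into libraries that keep the strand.

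Sequencing depth was inferred from genes with 1 annotated transcript (GENCODE M21), as the fragment number that makes their low values whole. The share that came out whole to within 0.1 of a fragment was 89.9% to 92.1%, where 20% would by chance. A floor of 3 fragments in 1 kb then equals 0.132 to 0.169 FPKM, for counting error only.

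The fit used limma 3.58.1 in R 4.3.3 on log2(FPKM + 1), with an intensity trend and the group, over the 9728 of 18019 genes that reached 1 FPKM in 3 or more libraries. This scale understates changes of low genes. P-values are two-sided and were adjusted by Benjamini-Hochberg over all tested genes, at 0.05. For family genes under the filter a two-sided exact permutation test replaced the fit. The fit was tested on simulated data, with noise drawn independently for each gene and library. That run held none of the library-wide deviations of control replicate 3 and TPPU replicate 1, so it does not bear on them.

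The members and lists were chosen with earlier results of these data known. Genes named are the 10 members, other family genes with a row, and up to 4 of each further list with the smallest unadjusted p, of which some are not reported here. Alternatives were a pseudocount of 0.1 or 0.5, the filter dropped or replaced by a mean of 5 FPKM, scaling by median of ratios, quantile normalization, sample quality weights, no intensity trend, robust empirical Bayes, a replicate block, loess trends (span 0.3) on GC content or length of the longest transcript taken out, which 97.9% of tested genes had, and leaving out each library. A sum of the Bcl2a1 copies and a score without Bcl2a1b and Bcl2a1d were added after the data were seen. RefSeq promoters (GRCm38.p6) of Bcl2a1a and Bcl2a1d were matched by symbol, and the stretch shown of each was aligned in Biopython 1.88. Scripts ran in Python 3.11.15 (numpy 2.4.6, scipy 1.17.1, pandas 2.3.3, and matplotlib 3.10.9 for figures).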

Additional observations from a re-analysis of the deposited data

How the results depend on the processing

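No member passed the adjusted threshold under any alternative run, and the smallest adjusted p of a member was 0.155 (Bad, limma). Of 186 values of members under the alternatives, 183 kept the sign of the reported change. Many of these could not turn. Dropping or raising the filter, leaving out the intensity trend, robust empirical Bayes and the replicate block leave the log2 change itself as it was. The sum of the Bcl2a1 copies does the same for the other members. The count therefore overstates how far the signs were put to a test. Over all genes, 169 passed with sample quality weights (89 higher and 80 lower, with control replicates 1, 2 and 3 weighted at 3.84, 0.826 and 0.191), 1 lower gene (Il1rn) with the GC trend removed, and 0 to 5 with each library left out. The 5, all without TPPU replicate 1, were Ahsg, Apoh, Rps27a and Serpina1b (higher) and Cfd (lower). These 6 genes were named after their values were seen. Whether any of them goes with the hepatocyte marker signal given above was not tested.

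With sample quality weights Pmaip1 and Pim1 passed, as given above, and the sign turned for Bid (log2 change 0.072), Bnip3l (-0.037) and Tnfrsf1a (0.053). Bnip3l was also negative after quantile normalization (-0.0014) and with the GC trend removed (-0.079), and Bcl2l12 with the length trend removed (-0.0022). With each library left out in turn, log2 changes ranged from -0.0075 to 1.17 for Bcl2a1d, from -0.13 to 0.051 for Bid, from -0.11 to 0.12 for Bnip3l, from -0.0064 to 0.78 for Vdac3, from -0.0497 to 0.68 for Xiap, from -0.15 to 0.065 for Tnfrsf1a and from -0.48 to 0.12 for Fas. The pro-survival minus pro-death difference ranged from -0.06 to 0.40 in the same way, with the lowest value without control replicate 3 and the highest without control replicate 2. It was 0.14 to 0.26 under the changed pseudocounts, filters, scalings and trend corrections. The cause of these changes was not tested.

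With the replicate block, 0 members and 0 of all genes passed. The labels give the replicate number no meaning, so the numbers were not taken to pair the samples. Same-numbered libraries deviated from their group means with correlations of -0.30, 0.15 and -0.40. The largest correlation between a control and a TPPU library was 0.51, for control replicate 3 and TPPU replicate 1. These values cannot decide whether samples were paired. With 3 libraries a group, small differences could not be detected.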
